A study of Mus musculus with 4 samples.

Results

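The growth hormone and IGF axis was followed through 10 genes of the 32285 in the count matrices, chosen by symbol: Ghr, Stat5a, Stat5b, Socs2, Igf1, Igfals, Igfbp2, Igfbp3, Bcl6 and Cux2. Nuclei isolated from frozen liver were sequenced one by one with the 10X Genomics droplet method, which counts transcripts near the 3′ end by unique molecular identifiers (UMIs). The donors were C57BL6/J males of wild type genotype. There were 2 libraries from mice of 2 months, called young, and 2 from mice of 30 months, called aged. The labels name no treatment. They do not say how many mice went into a library, so p-values measure the spread between libraries, which may be technical.

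Growth hormone from the pituitary binds its receptor on hepatocytes, and the kinase JAK2 then phosphorylates the transcription factors STAT5A and STAT5B. STAT5 drives Igf1, the source of most circulating insulin-like growth factor 1, together with its serum carrier subunit, encoded by Igfals, and the feedback inhibitor Socs2. In rodents the pulse pattern of growth hormone differs between the sexes, and the repressors BCL6, more abundant in male liver, and CUX2, more abundant in female liver, help to keep their target genes apart.

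After filtering, 33262 nuclei remained, of which 24045 were hepatocyte-like. They numbered 1372, 8839, 5534 and 8300 in young replicates 1 and 2 and aged replicates 1 and 2, with median depths of 3567, 923, 2112 and 2984 UMIs. Each library's hepatocyte-like nuclei lay mostly in clusters of its own. In each of these clusters all 12 hepatocyte markers were detected in at least 10% of nuclei, and fewer than 3 markers of any other class were raised. Detection alone does not set hepatocytes apart. In macrophage-like nuclei 12 hepatocyte transcripts stood at 59.3% to 94.9% of their hepatocyte level, so the name rests on the lack of other markers. Summed levels of 4 Y-linked genes in these nuclei were 497 to 813 CPM (UMIs scaled to a common library total), against 1.27 to 6.58 CPM for Xist, in the 4 libraries labelled male. Aged replicate 1 stood apart: Cyp2b9, a P450 of female mouse liver, had 869 CPM there and 0.184 to 1.93 in the others. Young replicate 1 had 157 CPM of Igfbp1, a binding protein that rises in fasting, against 2.39 to 6.40 elsewhere. Pairs of libraries shared 8 to 67 cell barcodes, at most 0.537% of the smaller library.

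RefSeq promoter windows on GRCm38.p6, from 250 bases before to 50 after a start site, were found for 9 of the 10 genes and searched for TTCNNNGAA, the core motif that STAT5 dimers bind and which reads the same on both strands. It was present for 2 of the 9, Bcl6 and Igfals, and for 9.55% of all 27025 genes in the table. Genes with several windows have more chances of a match, and 8.30% of all 32851 windows held the motif. The Bcl6 window at chr16:23981234-23981533, minus strand, lies wholly inside an intron of the gene, before an internal start, and holds 3 copies, which begin 168, 122 and 88 bases upstream of the start. Of these, 2 have the stricter form TTCCNGGAA, a subset of the first motif held by 1.35% of genes. The Igfals window at chr17:24877981-24878280, plus strand, holds 1 copy that begins 58 bases upstream of the second of 3 listed starts, and 66 of its 300 bases are annotated as exon. These windows are shown because they place the motif in the repressor and in the IGF carrier described below, with the motif in capitals. Another window of Bcl6 and another of Igfals, not shown, hold 1 copy each, beginning 118 and 236 bases upstream of their starts. A match describes the letters only.
Bcl6: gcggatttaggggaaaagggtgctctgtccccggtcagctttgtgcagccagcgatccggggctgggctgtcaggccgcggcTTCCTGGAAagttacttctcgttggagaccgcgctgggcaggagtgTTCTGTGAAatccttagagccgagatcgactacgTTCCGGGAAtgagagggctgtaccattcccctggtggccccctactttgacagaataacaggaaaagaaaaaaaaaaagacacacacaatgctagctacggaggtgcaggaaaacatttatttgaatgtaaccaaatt
Igfals: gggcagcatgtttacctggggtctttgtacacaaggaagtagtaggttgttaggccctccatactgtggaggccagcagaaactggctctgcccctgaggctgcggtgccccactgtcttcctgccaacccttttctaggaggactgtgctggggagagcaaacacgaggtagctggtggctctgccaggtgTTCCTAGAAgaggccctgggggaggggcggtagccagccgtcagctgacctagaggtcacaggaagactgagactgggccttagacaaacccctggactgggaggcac

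In aged against young hepatocyte-like nuclei, Igf1, Igfbp2, Socs2 and Stat5b were higher in both aged libraries than in both young ones, and Stat5a was lower in both. None of the 10 genes passed an adjusted p of 0.05 in edgeR's quasi-likelihood test, in which 0.026% of 15379 genes passed. At an unadjusted p under 0.05 there were 4 of the 10, against 18.5% of all genes: Socs2, Igfbp2 and Cux2 were on the higher side (9.71% of all genes) and Igfbp3 on the lower (8.75%). The groups did not overlap for 5 of the 10, against 51.4% of all genes, so this count was near the background. The median log2 fold change was 0.70 over the 10 genes and -0.02 over all genes tested. DESeq2 called 1 of the 10, Socs2, against 5.62% of the 14858 genes to which it gave an adjusted p. All levels in this comparison are UMIs summed per library, scaled by the TMM method and given as CPM.

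Ghr, the growth hormone receptor on chromosome 15 (3317760 to 3583492, minus strand, mm10), had 13435 and 6543 CPM in the young libraries and 6191 and 7141 CPM in the aged ones. Young replicate 1 was the highest and the other 3 lay close together, so the groups overlapped. The log2 fold change was -0.58 ± 0.80 (SE), with an adjusted p of 0.738 in edgeR, and it was 0.04 without young replicate 1. Stat5a (chromosome 11, 100859351 to 100885169, plus strand) had 21.7 and 25.4 CPM in the young libraries and 21.0 and 17.9 CPM in the aged ones. Its neighbour Stat5b (100780731 to 100850724, minus strand) had 189 and 117 CPM (young) against 223 and 212 CPM (aged). Both aged libraries were below the young ones for Stat5a and above them for Stat5b, by -0.27 ± 0.32 and 0.51 ± 0.35 on the log2 scale (adjusted p in edgeR 0.683 and 0.477).

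Socs2, which binds the activated receptor and ends its signal (chromosome 10, 95385362 to 95417180, minus strand), had 39.4 and 34.4 CPM in the young libraries and 155 and 61.1 CPM in the aged ones. Both aged libraries were above both young ones, and aged replicate 1 was far above aged replicate 2. The log2 fold change was 1.55 ± 0.46, with an unadjusted p of 0.0112 and an adjusted p of 0.189 in edgeR. It fell to 0.74 (adjusted p 0.789) without aged replicate 1 and rose to 2.11 (adjusted p 0.00225) without aged replicate 2. DESeq2 gave 1.60 with an adjusted p of 0.0381. A UMI of Socs2 was found in 3.76%, 3.66%, 14.0% and 6.04% of hepatocyte-like nuclei in the same order, after each nucleus had been thinned to 1000 UMIs. For background, thinned to 500 UMIs the shares were 1.68%, 1.76%, 6.40% and 3.18% in hepatocyte-like and 0%, 0.813%, 5.43% and 1.01% in T/NK-like nuclei. In aged replicate 1 the hepatocyte-like share was thus close to that of its 92 T/NK-like nuclei. Other classes of that library had lower shares. These were 3.43% in stellate/fibroblast-like, 2.93% in macrophage-like, 1.92% in endothelial-like, 0.905% in B-like and 0% in cholangiocyte-like nuclei.

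Igf1 (chromosome 10, 87858265 to 87937042, plus strand) had 1799 and 1190 CPM in the young libraries and 2562 and 2942 CPM in the aged ones. The aged libraries were the 2 highest, with no overlap. The log2 fold change was 0.88 ± 0.54 (adjusted p 0.425 in edgeR), and it stayed between 0.64 and 1.22 when any 1 library was left out. In nuclei thinned to 1000 UMIs, Igf1 was seen in 76.9% (95% exact binomial interval 74.5 to 79.2) and 68.6% (67.1 to 70.0) of young and in 88.0% (87.0 to 89.0) and 91.1% (90.4 to 91.8) of aged hepatocyte-like nuclei. These intervals cover counting error only. The mean share was 16.8 percentage points higher in the aged, with a two-sided exact permutation p of 0.333, the smallest that 2 libraries against 2 allow. Thinning left out 70, 5036, 1559 and 1132 shallower nuclei, and without thinning the shares were 94.5%, 66.8%, 90.3% and 94.9%, which overlap. For background, thinned to 500 UMIs the shares were 52.8%, 45.6%, 66.5% and 72.5% in hepatocyte-like nuclei and 11.8%, 37.4%, 41.3% and 40.6% in T/NK-like nuclei. The T/NK-like nuclei numbered 17, 123, 92 and 298 and had median depths of 1671, 1117, 1154 and 1076 UMIs. Other classes differed from these. The shares were 42.5%, 43.7%, 34.7% and 55.9% in macrophage-like and 39.3%, 41.7%, 17.3% and 52.8% in endothelial-like nuclei.

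The antisense gene Igf1os overlaps 5117 bases of Igf1 and had 22.7 and 49.4 (young) against 243 and 93.9 unscaled CPM (aged), again with no overlap. Whether the counting used the strand of the reads is not given in the sources used here. If it did not, reads of the shared bases could not be assigned to one of these genes.

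Igfals, the acid-labile subunit that holds IGF1 in a long-lived serum complex (chromosome 17, 24865997 to 24882010, plus strand), had 21.8 and 49.9 CPM (young) against 96.5 and 48.9 CPM (aged). Young replicate 2 and aged replicate 2 were nearly equal, so the groups overlapped, with a log2 fold change of 1.01 ± 0.49 (adjusted p 0.318 in edgeR). It was 1.76 with an adjusted p of 0.0324 without young replicate 2 and 0.46 without aged replicate 1. Igfbp2, an abundant serum IGF binding protein (chromosome 1, 72824503 to 72852474, plus strand), had 73.5 and 120 CPM (young) against 212 and 178 CPM (aged). Both aged libraries were above the young ones, by 1.01 ± 0.36 on the log2 scale (unadjusted p 0.0241, adjusted p 0.221 in edgeR). With 1 library left out the Igfbp2 log2 fold change was between 0.70 and 1.43.

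Igfbp3, the main partner of IGF1 in that serum complex (chromosome 11, 7206086 to 7213923, minus strand), was near the detection limit in hepatocyte-like nuclei. It had 0.485 and 14.0 CPM (young) against 1.15 and 0.574 CPM (aged). Young replicate 2 alone was high, and the log2 fold change of -3.12 ± 1.22 (adjusted p 0.242 in edgeR) was 0.81 without it. Without young replicate 1 or aged replicate 1 the adjusted p was 0.000596 and 0.0202. In young replicate 2 the non-hepatocyte classes other than the stellate/fibroblast-like one also held Igfbp3, at 5.73 to 38.0 unscaled CPM from 1 to 14 UMIs each. In the other 3 libraries those classes had at most 5.34 unscaled CPM.

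Bcl6 (chromosome 16, 23965052 to 23988852, minus strand) had 259 and 167 CPM (young) against 275 and 240 CPM (aged). The groups overlapped and the log2 fold change was 0.27 ± 0.36 (adjusted p 0.726 in edgeR). Cux2 (chromosome 5, 121856366 to 122050102, minus strand) had 4.20 and 2.11 CPM (young) against 87.1 and 1.21 CPM (aged). Aged replicate 1 alone was high, and aged replicate 2 was the lowest of the 4. The fitted log2 fold change of 3.84 ± 1.54 (adjusted p 0.252 in edgeR) turned to -1.35 (adjusted p 0.866) without aged replicate 1, and the adjusted p was 1.63e-16 without aged replicate 2. For Bcl6 young replicate 2 was the lowest, at 167 CPM, and the others lay between 240 and 275 CPM. The Bcl6 log2 fold change was between 0.02 and 0.63 with 1 library left out.

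**Figure D1:**
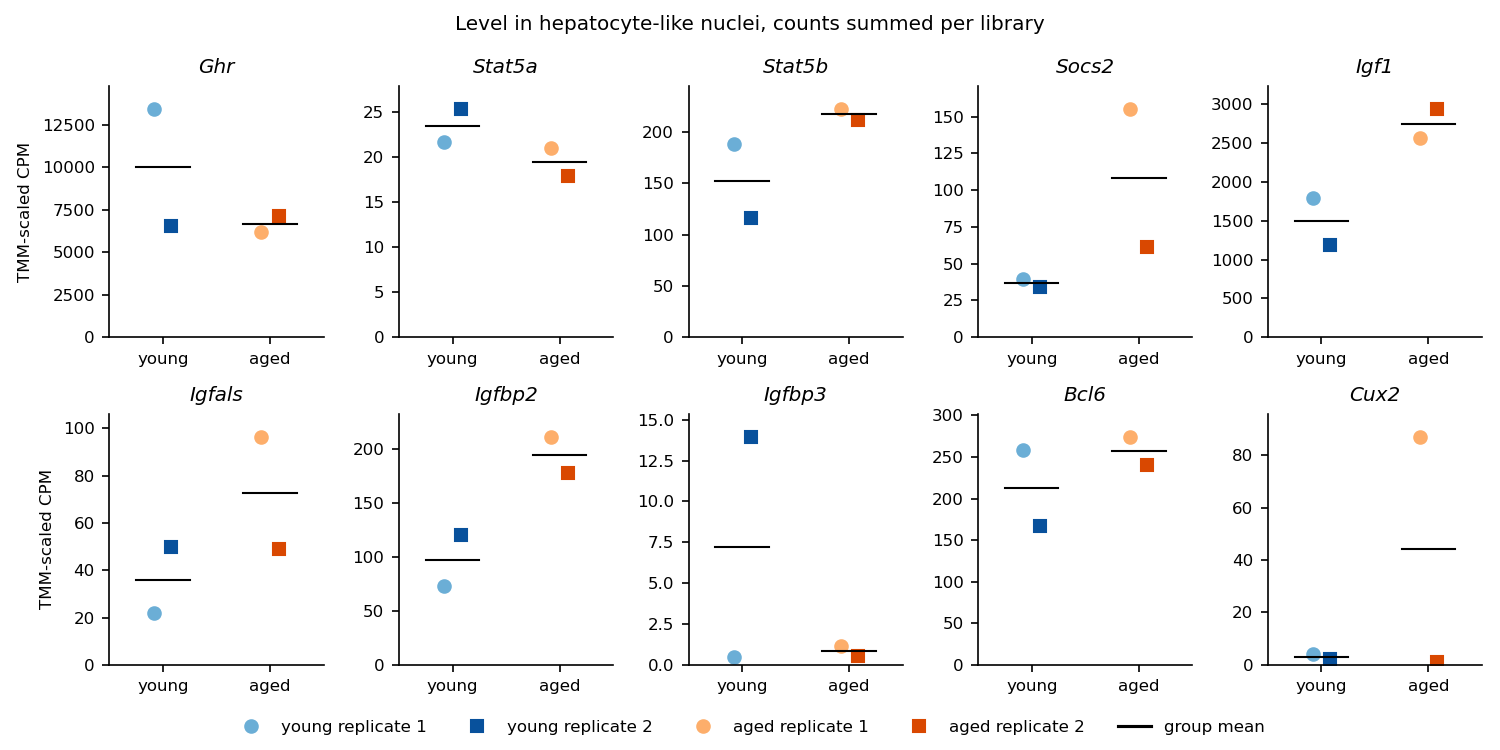
TMM-scaled CPM of the 10 genes in hepatocyte-like nuclei, 1 point for each library, with horizontal lines at the mean of the 2 libraries of a group. Igf1, Igfbp2, Socs2 and Stat5b have both aged points above both young ones, while the high Cux2 point is aged replicate 1 at 87.1 and the high Igfbp3 point is young replicate 2 at 14.0.

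In aged replicate 1, a UMI of Cux2 was seen in 8.35% (95% exact binomial interval 7.51 to 9.26) of hepatocyte-like nuclei thinned to 1000 UMIs, against 0.307%, 0.210% and 0.126% in young replicates 1 and 2 and aged replicate 2. Thinned to 500 UMIs, the share in aged replicate 1 was 4.19% in hepatocyte-like nuclei, 3.85% in endothelial-like nuclei and 0.837% in macrophage-like nuclei, whose median depths were 2112, 914 and 1161 UMIs. In this library the endothelial-like share was close to the hepatocyte-like one and the macrophage-like share was the lowest of these. Within aged replicate 1, Cyp2b9 was seen in 56.3% of the 332 thinned nuclei with a Cux2 UMI and in 51.6% of the 3643 without one. Glul, a gene of the cells beside the central vein, was seen in 3.01% and 8.67% of them. Igf1 was seen in 90.1% and 87.8%, and Socs2 in 15.7% and 13.8%. These shares describe nuclei of 1 library and were not tested.

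The other genes of the pathway were read from lists. Of 18 genes of growth hormone receptor signalling, 17 could be tested in hepatocyte-like nuclei, and 7 were higher and 10 lower in the aged libraries, with none past the threshold in edgeR, none in DESeq2 and none at an unadjusted p under 0.05. The smallest p-values belonged to the adaptor Sh2b1 (34.6 and 53.0 CPM young, 26.4 and 27.2 aged), the phosphatase Ptpn6, the PI3-kinase subunit Pik3r1 and the kinase Lyn, with log2 fold changes of -0.71, -0.99, -0.46 and -0.48 and adjusted p of 0.306 to 0.570. Their median log2 fold change was -0.17. Of 14 further genes for IGF ligands, receptors, binding proteins and their proteases, 8 were tested, 3 higher and 5 lower, with a median of -0.31, none past the threshold in edgeR, none in DESeq2 and 2 lower at an unadjusted p under 0.05, against 8.75% of all genes.

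Within that list Igfbp1 had a log2 fold change of -4.17 (adjusted p 0.223), which turned to 0.89 without young replicate 1. Igfbp7 had 16.2 and 33.4 CPM (young) against 13.6 and 8.52 CPM (aged), with a log2 fold change of -1.17 (adjusted p 0.240). Igf2r, the clearance receptor for IGF2, had 27.0 and 49.9 CPM (young) against 58.7 and 59.1 CPM (aged), with a log2 fold change of 0.61 (adjusted p 0.416). Igfbp5 had a log2 fold change of -0.79 (adjusted p 0.489).

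Among 13 liver transcription factors that act with STAT5, 8 were higher and 5 lower, none past the threshold in edgeR, 2 (1 higher, 1 lower) in DESeq2, against 5.62% of genes, and 4 at an unadjusted p under 0.05, against 18.5%. Cebpb, a factor of the acute and regenerative responses, had 483 and 285 CPM (young) against 121 and 80.9 CPM (aged), with a log2 fold change of -1.92 ± 0.42 (adjusted p 0.143 in edgeR). Cebpa had a log2 fold change of -1.06 (adjusted p 0.222). Trim24, a nuclear receptor cofactor, had 433 CPM in aged replicate 1 and 103 to 116 CPM in the other 3 libraries. Prlr, the prolactin receptor, named here after its values were seen, had 610, 213, 1486 and 138 CPM, again highest in aged replicate 1.

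Targets of the sex-dependent growth hormone pattern were read from a pair of lists. Of 19 genes more abundant in male liver, 17 were lower in the aged libraries, 13 of them without overlap, against 25.7% of all genes. Their median log2 fold change was -1.70, and none passed in edgeR, while DESeq2 called 4 lower, against 5.62% of genes in either direction, and 6 were lower at an unadjusted p under 0.05 against 8.75% of all genes. The smallest p-values belonged to Cyp4a12a, Mup3, Ugt2b1 and Cyp2d9, with log2 fold changes of -1.93, -1.84, -1.70 and -1.80 and adjusted p of 0.150 to 0.209. Of 18 genes more abundant in female liver, 9 were tested and 8 were higher in the mean of the aged libraries, with a median of 1.94, none past the threshold in edgeR, 2 higher in DESeq2, against 5.62%, and 3 higher at an unadjusted p under 0.05, against 9.71%. Both aged libraries were above both young ones for 2 of the 9, against 25.7% of all genes. Here aged replicate 1 set the means: Cyp2b9, Slc22a26 and Fmo2 had 869, 154 and 227 CPM in it and 1.93, 0.423 and 9.58 CPM in aged replicate 2.

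Between the portal and the central vein, Ghr, Socs2 and Stat5a were higher in pericentral hepatocyte-like nuclei, and Igf1, Igfbp2 and Cux2 were higher in periportal ones, the last of these through aged replicate 1 alone. Nuclei of each library were ranked by 14 pericentral and 14 periportal landmark genes, none of which is among the 10, and the 1 in 3 at each end were summed. In edgeR's quasi-likelihood test with the library as a block, 6 of the 10 genes passed an adjusted p of 0.05, against 22.3% of 13832 genes. The direction was the same in all 4 libraries for 5 of the 10, namely Ghr, Socs2, Igfbp3, Igf1 and Igfbp2, against 37.9% of all genes. Levels below are TMM-scaled CPM in the order young replicates 1 and 2, aged replicates 1 and 2.

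Ghr had 11114, 5722, 5692 and 6733 CPM in periportal and 15738, 7596, 7210 and 7756 CPM in pericentral nuclei. The pericentral value was the higher one in every library, by 0.36 ± 0.07 (SE) on the log2 scale (adjusted p 0.00398 in edgeR). Igf1 ran the other way, with 2066, 1454, 2945 and 3480 CPM in periportal and 1524, 882, 2372 and 2289 CPM in pericentral nuclei. The periportal value was the higher one in every library, and the log2 difference, pericentral minus periportal, was -0.52 ± 0.08 (adjusted p 0.000776 in edgeR). The receptor and the growth factor thus had opposite slopes across the same nuclei.

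The feedback gene Socs2 had 32.9, 24.0, 127 and 48.6 CPM in periportal and 44.2, 45.6, 187 and 71.2 CPM in pericentral nuclei. It was higher pericentrally in all 4 libraries, by 0.61 ± 0.09 on the log2 scale (adjusted p 0.000538 in edgeR). Stat5a had 24.5, 15.6, 19.3 and 15.5 CPM in periportal and 22.8, 36.9, 25.1 and 25 CPM in pericentral nuclei, higher in 3 of 4 libraries. Its difference of 0.61 ± 0.16 (adjusted p 0.0193 in edgeR) lost its call without young replicate 2 (adjusted p 0.0714) and without aged replicate 2 (adjusted p 0.0997). Stat5b had a difference of -0.06 ± 0.09 (adjusted p 0.718) and was higher pericentrally in 2 of 4 libraries.

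Igfbp2 had 90.3, 143, 240 and 194 CPM in periportal and 46.6, 88.0, 148 and 132 CPM in pericentral nuclei, a log2 difference of -0.69 ± 0.08 (adjusted p 9.7e-05 in edgeR). With the nuclei in 10 equal groups along the score, unscaled CPM of Igfbp2 in group 10, nearest the central vein, were 13.1, 78.2, 49.0 and 47.2, against 58.1, 154, 258 and 235 in group 7. Group 10 was the lowest in each library. In both aged libraries the level was higher in groups 5 to 7 than in group 1. Igfals and Igfbp3 had log2 differences of -0.18 ± 0.11 and 0.42 ± 0.35 (adjusted p in edgeR 0.320 and 0.461), and Bcl6 had 0.02 ± 0.07 (adjusted p 0.910).

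Cux2 in aged replicate 1 was 139 CPM in periportal and 41.5 CPM in pericentral nuclei, and over the 10 groups it declined at each step from 157 to 30.6 unscaled CPM. In the other 3 libraries it was between 0.832 and 6.65 CPM in either zone. The log2 difference over all libraries was -1.45 ± 0.29 (adjusted p 0.00377 in edgeR) and was -0.31 (adjusted p 0.796) without aged replicate 1, so the call rested on that library. Median depths in aged replicate 1 were 2698 UMIs in periportal and 2608 in pericentral nuclei.

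**Figure D2:**
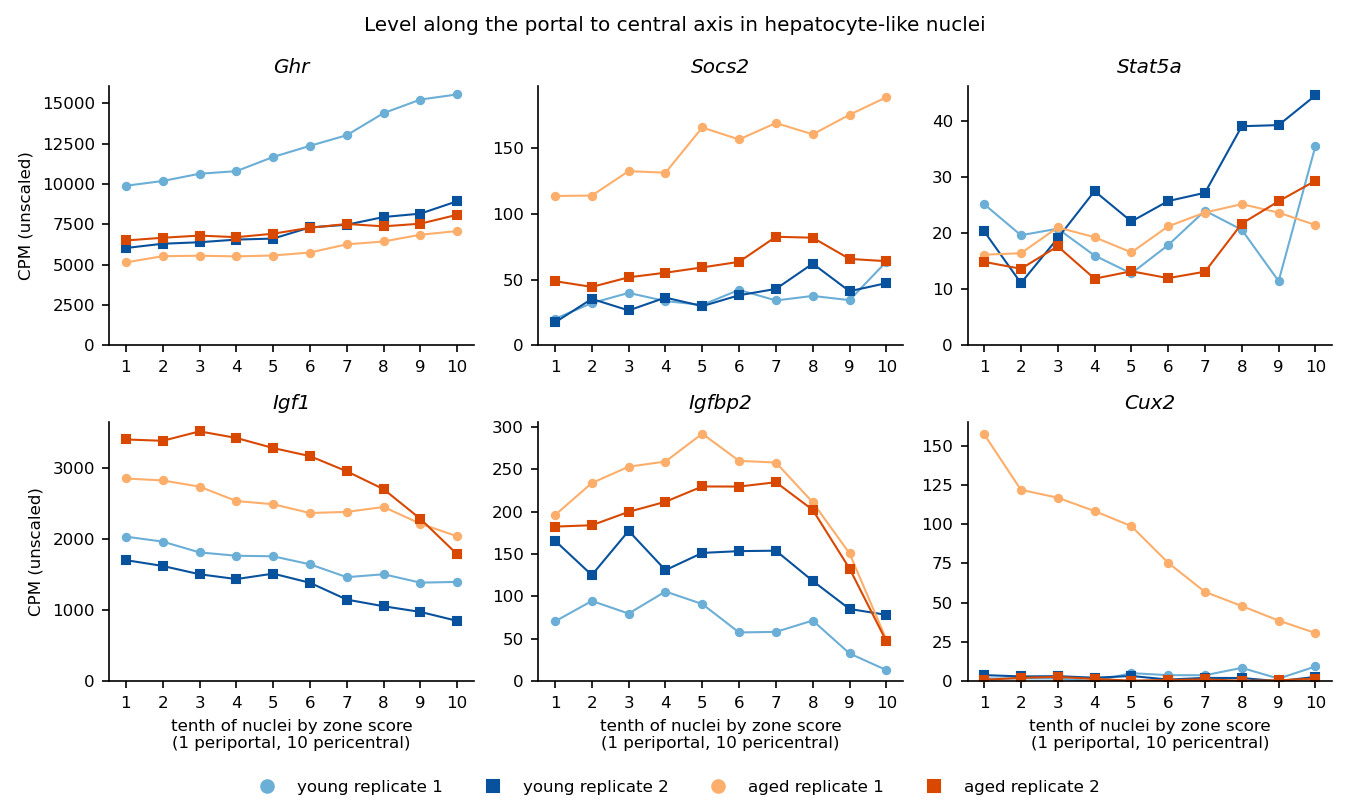
Unscaled CPM of the 6 genes with a called zone difference, in 10 equal groups of hepatocyte-like nuclei ordered from periportal (1) to pericentral (10), with 1 line for each library. Ghr and Socs2 are higher and Igf1 is lower in group 10 than in group 1 of each library, Igfbp2 peaks between groups 3 and 7 and is lowest in group 10 of each library, Stat5a is scattered, and the Cux2 slope is that of aged replicate 1, from 157 to 30.6.

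No zone difference of the 10 genes changed with age past the threshold, and 0.0868% of the 13832 genes did in edgeR. Cux2 had the smallest p-value, with an interaction of -2.06 ± 0.66 on the log2 scale, an unadjusted p of 0.0112 and an adjusted p of 0.653, and it was the single one of the 10 at an unadjusted p under 0.05, against 5.96% of genes. The interaction for Igf1 was 0.12 ± 0.16 and that for Ghr was -0.18 ± 0.13. With 1 library left out the Cux2 interaction ranged from -3.70 to -0.63. Its log2 ratios of pericentral to periportal level were 1.72 and -0.86 in young replicates 1 and 2. In aged replicates 1 and 2 they were -1.73 and -0.86. Hepatocyte-like nuclei of these libraries held 26, 23, 1442 and 40 UMIs of Cux2 in the same order, so most of these ratios rest on few UMIs.

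Of the wider pathway, some genes named after their values were seen had zone differences of the same order. In the signalling list 4 of 17 tested genes passed in the zone test, near the 22.3% of all genes. Irs1 was higher pericentrally (0.29) and Stat3, Shc1 and Cish were higher periportally (-0.30, -0.35 and -0.65 on the log2 scale, adjusted p at most 0.0382). Cish, an inhibitor of the same family as Socs2, had 102, 103, 124 and 105 CPM in periportal and 56.5, 78.6, 70.8 and 69.0 CPM in pericentral nuclei, the reverse order of Socs2. In the IGF list 2 of 7 passed, again near the 22.3% of all genes, and both were higher pericentrally: Igf2r by 1.85 ± 0.14 (adjusted p 4e-06 in edgeR) and Igf1r, the IGF1 receptor, by 1.64 ± 0.34 (adjusted p 0.00522). Igf1r had 11.7, 8.38, 5.29 and 4.00 CPM in periportal and 13.3, 9.43, 24.0 and 23.0 CPM in pericentral nuclei, with the larger gaps in the aged libraries, and its zone by age term was 2.19 ± 0.33 (adjusted p 0.0532 in edgeR). Among the transcription factors 7 of 13 passed, 4 higher pericentrally and 3 periportally, against 22.3% of all genes. Of these, Tox, Trim24 and Cebpb were higher pericentrally and Esr1, Foxa3 and Onecut1 periportally (log2 differences of 4.00, 0.93, 0.35, -1.23, -0.55 and -0.45 in that order).

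Across nucleus classes, Igfbp3 was highest in stellate/fibroblast-like nuclei, and the other secreted factors were highest in hepatocyte-like nuclei on average. Classes come from clustering of the same nuclei, so these are descriptions with no test. RNA set free from hepatocytes enters other droplets, and its size was read from 12 hepatocyte transcripts such as Alb and Apob. In stellate/fibroblast-like nuclei these stood at 89.7%, 70.4%, 35.0% and 50.9% of their hepatocyte level in the 4 libraries.

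Igfbp3 had 22.3, 78.8, 131 and 77.6 unscaled CPM in stellate/fibroblast-like nuclei, from 52, 180, 48 and 109 UMIs, and 0.449, 15.4, 1.1 and 0.576 in hepatocyte-like nuclei. In every library the stellate/fibroblast-like class had the higher value, while the 12 hepatocyte transcripts were lower there. Leaving out nuclei in which those transcripts reached 50% of their hepatocyte level, the stellate/fibroblast-like values were 145, 101, 146 and 65.4 unscaled CPM. In aged against young stellate/fibroblast-like nuclei the log2 fold change of Igfbp3 was 1.05 ± 0.53 (adjusted p 0.204 in edgeR). After TMM scaling the levels were 24.8 and 73.5 (young) against 132 and 77.9 CPM (aged), which do not overlap, while the unscaled ones do. Leaving out 1 library moved it between 0.53 and 2.06, and its adjusted p was 0.000108 without young replicate 2. Without the nuclei at that free RNA level it was -0.13.

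Igf1 averaged 2104 ± 749 unscaled CPM (SD, n = 4 libraries) in hepatocyte-like nuclei, followed by 1810 ± 553 in macrophage-like, 1577 ± 555 in B-like, 1556 ± 742 in T/NK-like and 1539 ± 733 in endothelial-like nuclei. The order ended with 968 ± 559 in mesothelial-like, 894 ± 307 in cholangiocyte-like and 880 ± 492 in stellate/fibroblast-like nuclei. No step between neighbours in this order exceeded the larger of their SDs. The step from endothelial-like to mesothelial-like nuclei was larger than the mesothelial-like SD. In macrophage-like nuclei Igf1 stood at 104%, 99.0%, 65.3% and 87.9% of the hepatocyte level of each library, beside 94.9%, 85.7%, 59.3% and 82.3% for the 12 hepatocyte transcripts. Both ratios were lowest in aged replicate 1, and the part of free RNA in these Igf1 levels was not tested.

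Ghr averaged 8206 ± 2876 unscaled CPM in hepatocyte-like nuclei, with 3833 ± 446 to 6474 ± 1737 in the other 7 classes, again with each neighbouring step within the spread. Bcl6 averaged 233 ± 34.6 in hepatocyte-like nuclei and 101 ± 30.8 to 207 ± 64.1 in the others. Stat5b varied least between classes, from 146 ± 20.4 in stellate/fibroblast-like to 234 ± 86.1 in B-like nuclei, with hepatocyte-like nuclei at 183 ± 40.9. Stat5a ranged from 12 ± 9.54 in endothelial-like to 25.6 ± 6.44 in T/NK-like nuclei.

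Igfals averaged 54.5 ± 30.3 unscaled CPM in hepatocyte-like nuclei and 17.8 ± 22.1 to 40.8 ± 16.6 elsewhere, and Igfbp2 averaged 146 ± 60.1 and 65.5 ± 59.0 to 122 ± 76.6. Socs2 averaged 71.6 ± 54.1 in hepatocyte-like nuclei and was higher in mesothelial-like ones in young replicates 1 and 2 and aged replicate 2, at 181, 70.5 and 67.3 against 36.5, 37.9 and 61.2. Those mesothelial-like values rest on 10, 6 and 13 UMIs.

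Cux2 was not highest in hepatocytes outside aged replicate 1. Endothelial-like nuclei had 25.3, 14.1 and 11.6 unscaled CPM of Cux2 in young replicates 1 and 2 and aged replicate 2, from 3, 19 and 39 UMIs, against 3.89, 2.33 and 1.21 in hepatocyte-like nuclei of the same libraries. In aged replicate 1 the endothelial-like and hepatocyte-like values were 83.3 and 84.6. The endothelial-like nuclei were thus above the hepatocyte-like ones in 3 of 4 libraries.

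**Figure D3:**
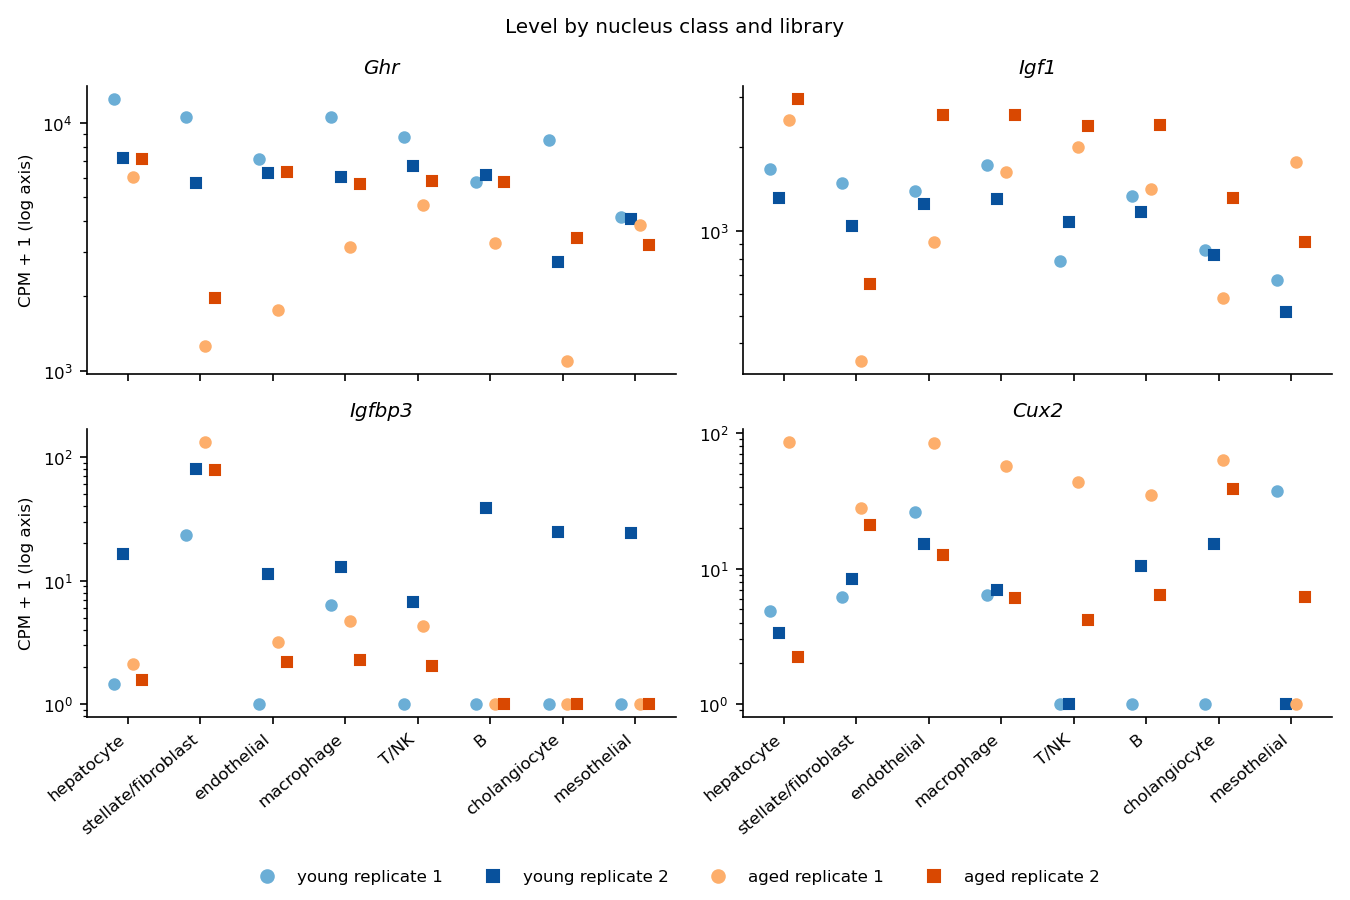
Unscaled CPM plus 1 of Ghr, Igf1, Igfbp3 and Cux2 in 8 nucleus classes, on a log axis, with 1 point for each library. Igfbp3 is highest in the stellate/fibroblast-like class in each library, and aged replicate 1 has the highest Cux2 point in all classes but the mesothelial-like one, where no Cux2 UMI was seen in its 6 nuclei.

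With age, Ghr and Bcl6 fell and Cux2 rose in stellate/fibroblast-like nuclei, 3 of the 10 genes, against 16.4% of 12259 genes that passed an adjusted p of 0.05 in edgeR. At an unadjusted p under 0.05 there were 4 of the 10, with Igf1, against 33.5% of all genes, and the groups did not overlap for 6 of the 10, against 64.5%, so these counts were near the background. The 12 hepatocyte transcripts fell like Ghr and Bcl6, from 89.7% and 70.4% of their hepatocyte level (young) to 35.0% and 50.9% (aged). The part of this in the 3 results was not tested. The share of these nuclei at or above 50% of the hepatocyte level was 55.8% and 82.7% (young) against 15.6% and 44.7% (aged). Different clusters also held most of the class at the 2 ages. One had 291 and 1357 nuclei of the young and 6 and 85 of the aged libraries, and the other 91 and 165 against 315 and 1141.

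Ghr had 11688 and 5313 TMM-scaled CPM in young and 1267 and 1966 in aged stellate/fibroblast-like nuclei. The groups did not overlap, and the log2 fold change was -2.39 ± 0.56 (adjusted p 0.0266 in edgeR). Bcl6 had 216 and 139 CPM (young) against 38.4 and 60.7 CPM (aged), with a log2 fold change of -1.78 ± 0.38 (adjusted p 0.0220 in edgeR). Both aged libraries lay below both young ones for either gene. Cux2 had 5.72 and 6.94 CPM (young) against 27.4 and 20 CPM (aged), from 12, 17, 10 and 28 UMIs, a log2 fold change of 1.84 ± 0.50 (adjusted p 0.0407 in edgeR). Unlike in hepatocyte-like nuclei, both aged libraries were above both young ones. In aged replicate 1 unscaled Cux2 stood at 32.2% of its hepatocyte level, beside 35.0% for the 12 hepatocyte transcripts. In aged replicate 2 it stood at 1645%. The part of free RNA in the Cux2 levels was not tested.

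These 3 calls were lost without aged replicate 1 (adjusted p 0.103 to 0.384) and without aged replicate 2 (adjusted p 0.0571 to 0.194). Without the nuclei at the free RNA level, no gene passed, 989 of 5946 were at an unadjusted p under 0.05, and Ghr and Bcl6 had log2 fold changes of -1.63 and -1.39 (adjusted p 0.247 and 0.295). DESeq2, which called 14% of genes in this class, kept Ghr and Bcl6 (adjusted p 2.15e-05 and 0.00615) and not Cux2 (0.132). Cux2 was too low to be fitted without the nuclei at the free RNA level, with 0, 4, 7 and 19 UMIs.

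Igf1 had 1648 and 973 CPM in young and 348 and 651 CPM in aged stellate/fibroblast-like nuclei, a log2 fold change of -1.38 ± 0.46 (adjusted p 0.0742 in edgeR), with no overlap. Leaving out 1 library moved the log2 fold change between -1.89 and -0.87. DESeq2 gave an adjusted p of 0.025. The other members of the axis had log2 fold changes between -0.93 for Igfals and 1.05 for Igfbp3 in this class, and none of them passed. In endothelial-like nuclei 9 of the 10 genes were tested, and none passed in edgeR or DESeq2 (0.0193% of genes in DESeq2) or reached an unadjusted p under 0.05, where 4.12% of 9824 genes reached it. In macrophage-like nuclei 7 were tested with the same outcome, where 2.68% of genes passed in DESeq2 and 14.8% of 7968 genes reached that p. The shares of all genes past the edgeR threshold were 0% and 0.0377% in these classes.

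**Figure D4:**
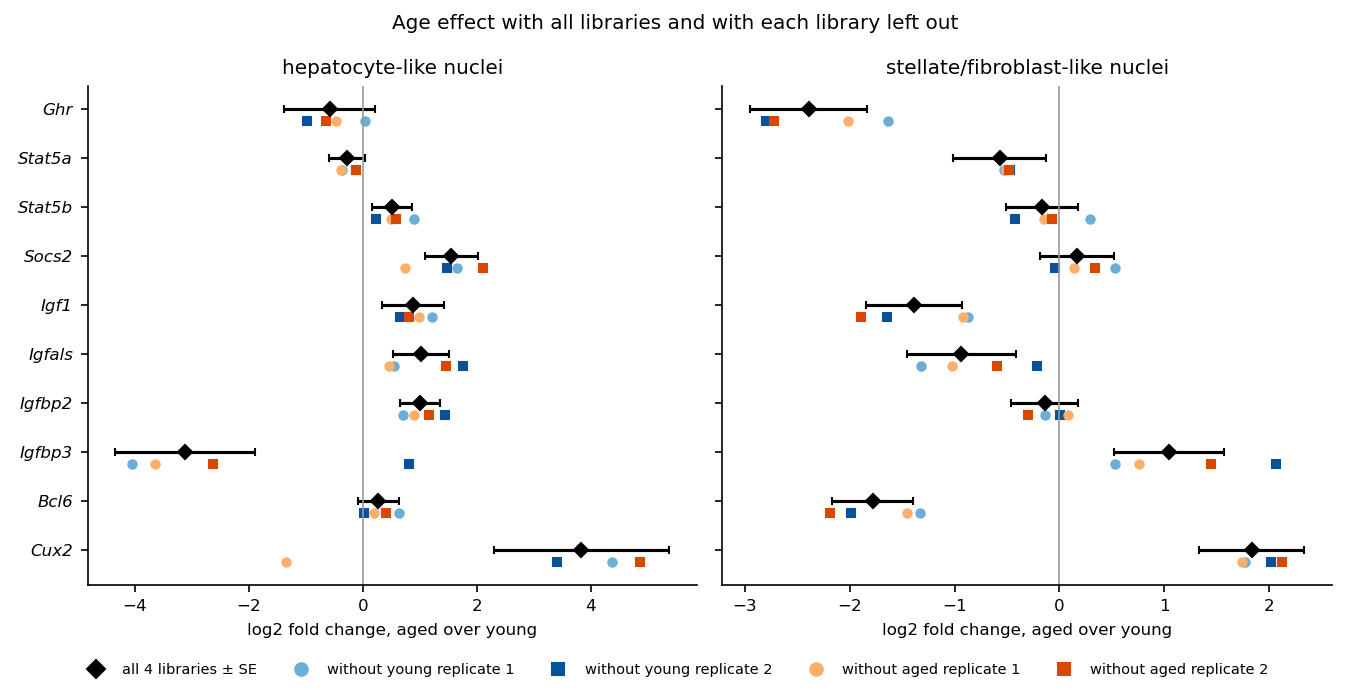
Log2 fold change of the 10 genes, aged over young, in hepatocyte-like and stellate/fibroblast-like nuclei (black diamond with 1 SE from the fit), and the same value with each library left out (coloured points below). In hepatocyte-like nuclei the Cux2 point without aged replicate 1 is at -1.35 and the Igfbp3 point without young replicate 2 is at 0.81, on the other side of 0 from their fits, while Igf1 stays between 0.64 and 1.22.

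The genes with the most similar levels were sought over 16 sums, 4 classes in each of 4 libraries, by Pearson's r of log2(CPM + 1), given as a description because the sums share libraries, depth and free RNA. For Ghr they were Lonp2, Scp2 and Ugp2 (r 0.99 for each), and for Igf1 they were Abca6, Hoga1 and Gys2 (0.98 for each). For Igfals they were Mtif3, Mastl and Ddt (0.98, 0.97 and 0.97), and for Igfbp2 Echdc3, Dnase2b and Hyal1 (0.89, 0.89 and 0.88). For Socs2 the likeness was lower, with Zmat1, Hint3 and Sh3yl1 (0.82, 0.75 and 0.74). Stat5a went with Rnf139, Cpne3 and Zbtb24 (0.97 for each), and Stat5b with Hal, Rnf125 and Sulf2 (0.89, 0.89 and 0.88). Bcl6 went with Prr16, Suclg2 and Lgr4 (0.97 for each). Cux2 went with Fmo2, Arrdc4 and Adamtsl1 (0.87, 0.83 and 0.82). It reached the mean of 10 CPM needed for this search only through aged replicate 1. Fmo2, on the list of genes more abundant in female liver, was also highest in that library, at 227 CPM against 9.58 to 26.0 elsewhere. The part of that library in this likeness was not tested.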

How the data were processed

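Per the submitters' processing notes, the authors made the deposited UMI counts with Cell Ranger 7.1.0 on mm10; the sources used here do not give its settings for introns or strand. The 4 matrices held 43013 barcodes, and the lowest had 500 UMIs in each. Kept nuclei had at least 500 UMIs, 300 genes or more and no more than 5% mitochondrial UMIs. The 3927 with the highest Scrublet scores (0.8% per 1000 barcodes of a library) were removed as likely doublets, since its automatic threshold marked 0 in each library. Counts scaled to 10000 per nucleus were clustered with scanpy 1.11.5 (2000 variable genes, of which 1 is a member, 30 components, 20 neighbours, Leiden resolution 1). Clusters were named from at least 3 markers, and the 655 nuclei of a mixed cluster stayed unnamed.

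UMI counts were summed per library and class (with at least 20 nuclei in each library) or zone, filtered with filterByExpr and tested with edgeR 4.0.16 (TMM, quasi-likelihood F test, Benjamini-Hochberg over all genes tested), which was also tested on simulated data. Hepatocyte-like nuclei of a library summed to between 6684623 and 32997873 UMIs, and endothelial-like ones to as few as 118700. Summed counts cannot tell fewer expressing nuclei from less RNA in each. The members and lists were chosen with earlier results of these data known. Named are all 10 members, the 4 genes of each other list with the smallest p in the hepatocyte age fit, and the 3 most similar genes of each member above 10 CPM; others are said to be named after their values were seen. Some genes that this rule names are not reported here. Alternatives were DESeq2 1.42.0, other size factors, no filter, other nucleus filters and zone cuts, a replicate block, and each library left out.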

Additional observations from a re-analysis of the deposited data

Results flagged for a closer look

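Igf1 moved in opposite directions with age in 2 classes. In hepatocyte-like nuclei both aged libraries were above both young ones (log2 fold change 0.88), and in stellate/fibroblast-like nuclei both were below them (-1.38), so the effects differed by 2.26 on the log2 scale. Neither effect passed its threshold, and the difference itself was not tested. The 12 hepatocyte transcripts in stellate/fibroblast-like nuclei went from 89.7% and 70.4% of their hepatocyte level in the young libraries to 35.0% and 50.9% in the aged ones, and their part in the difference was not tested. Without nuclei at the free RNA level, Igf1 in stellate/fibroblast-like nuclei was 373 and 703 (young) against 179 and 377 unscaled CPM (aged), which overlap.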

How the results depend on the processing

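Each of the 4 libraries limits these results, since a group has 2. In hepatocyte-like nuclei the age test called 4 genes; it called 2 with plain library totals, 2 with nuclei of at most 1% mitochondrial UMIs, 1479 with no filter on low counts, 835 with DESeq2 and 214 to 1511 with 1 library left out. Of the 10 members it called 0, and 3 with no filter, 1 with DESeq2 and 1 to 2 with 1 library left out. In stellate/fibroblast-like nuclei it called 2012 genes and 3 members; no filter gave 3144 genes, removal of nuclei at the free RNA level gave 0 genes and 0 members, and leaving out 1 library gave 1189 to 3734 genes and 0 to 5 members. In endothelial-like nuclei it called 0 genes, with 46 under no filter, 4 in DESeq2 and 0 to 349 with 1 library left out. In macrophage-like nuclei it called 3, with 0 under plain totals, 401 under no filter, 93 in DESeq2, 6 without nuclei at the free RNA level and 0 to 408 with 1 library left out. The cause of these shifts was not tested.

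With the replicate number as a block, the age test called 11, 0, 2 and 88 genes in hepatocyte-, stellate/fibroblast-, endothelial- and macrophage-like nuclei, and 0 members in stellate/fibroblast-like ones. The labels do not say that the numbers pair libraries, and the deviations of same-numbered libraries had correlations of -0.21, -0.25, 0.11 and -0.20. A crossed block, chosen after seeing the data like plain totals, called 7, 3580 and 673 genes in hepatocyte-, stellate/fibroblast- and macrophage-like nuclei, and 5 members in the stellate/fibroblast-like ones.

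Directions in hepatocyte-like nuclei turned for 6 named genes, with ranges over left-out libraries of -0.98 to 0.036 for Ghr, -4.05 to 0.81 for Igfbp3, -1.35 to 4.85 for Cux2, -0.82 to 0.0056 for Lyn, -5.13 to 0.89 for Igfbp1 and -0.99 to 3.59 for Fmo2. In stellate/fibroblast-like nuclei the ranges were -0.30 to 0.077 for Igfbp2, -0.038 to 0.53 for Socs2 and -0.42 to 0.29 for Stat5b. Without nuclei at the free RNA level the values there were 0.051 for Igfbp2, -0.13 for Igfbp3, -0.50 for Socs2 and 0.13 for Stat5b, and mean levels were 54.5 unscaled CPM for Igfbp2, 68.2 for Socs2 and 20.8 for Stat5a. Clustering without the members gave 62.4 for Socs2. The zone test called 2014 to 2772 genes and 5 to 6 members with 1 library left out, against 3085 and 6. Its difference ranged from -0.13 to 0.053 for Stat5b and from -0.01 to 0.066 for Bcl6, which was -0.014 with zones of 50% of the nuclei and -0.0185 with a score from thinned nuclei. The zone by age test called 12 genes, 192 with no filter, 2 in nuclei of at least 1000 UMIs and 16 to 118 with 1 library left out, and 0 members, 1 with no filter and 0 to 1 with 1 library left out. The aged minus young share of nuclei with Stat5a was -0.77 points thinned and 0.31 not thinned.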
